A study of Mus musculus with 79 samples.

Results

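The genes described here code for the later steps of mitochondrial beta oxidation and were measured in quadriceps muscle of male BXD mice. The 10 genes were taken by name, namely Hadha, Hadhb, Hadh, Echs1, Ech1, Acaa2, Decr1, Etfa, Etfb and Etfdh, out of 22335 gene symbols on the array, and each was read from the brightest of its probesets, judged by the mean of all arrays. The BXD family is a set of recombinant inbred strains derived from C57BL/6J and DBA/2J, and both of these parental strains were included. Mice received a chow diet (CD, Harlan 2018) throughout life or a high fat diet (HFD, Harlan 06414) from 8 weeks of age, and all were fasted overnight before sacrifice at 29 weeks. RNA of about 5 mice of a strain on a diet was pooled for 1 Affymetrix array, so that the 79 arrays comprised 42 strains on CD and 37 of the same strains on HFD. Variation among the mice of a pool is therefore not seen, and p-values rest on the spread between arrays.

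Each round of beta oxidation shortens a fatty acyl-CoA by hydration, oxidation and cleavage once an acyl-CoA dehydrogenase has made the first double bond. Hydratases, dehydrogenases and thiolases carry out these later steps, auxiliary enzymes bring the double bonds of unsaturated fatty acids into a form the spiral can use, and the electron transfer flavoprotein (ETF) carries electrons from the acyl-CoA dehydrogenases to the respiratory chain. Skeletal muscle relies on this pathway during fasting.

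Values are the deposited scores, whose mean was 8.0 and SD 2.0 for the 35556 probesets of each array. The scores behaved as a log measure of unstated base, so differences are given in units of the score and not as folds. All 10 genes lay in the brightest decile of probesets, at percentiles 91.0 (Echs1) to 99.0 (Hadh) of mean score. The labels gave 2 batches of RNA extraction and array, batch 1 holding 18 from CD and 17 from HFD and batch 2 holding 24 and 20. The 6 muscle fibre markers averaged 14.4 to 14.7 on every array, near the top of the scale. In BXD63 the HFD minus CD difference over 1154 olfactory receptor probesets ran against the mean difference of the other paired strains (r = -0.537). Each of the other 36 paired strains had r of 0.421 to 0.649 in the same comparison. Leaving BXD63 out changed none of the counts below of genes called for diet or between diets or of pairs called.

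Hadhb, the beta subunit with the thiolase of the trifunctional protein, had 2 probesets. The brighter one, 10474379, represents it here, but 0 of its 10 neighbours by probeset number lay on the chromosome of Hadhb, against 10 of 10 for the other one, 10520467. After diet and batch were removed, both probesets had r = 0.994 over the 79 arrays, and both are given for the diet difference, its range over strains and the pair with Hadha.

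The RefSeq promoter windows of the 2 subunits of the trifunctional protein overlap, and the common stretch is shown. The 2 genes were called as a pair on CD, on HFD and for the differences, as given below. Whether the overlap bears on their covariation was not tested. Hadha (minus strand) and Hadhb (plus strand) start 273 bases apart on chromosome 5, at 30154980 and 30155253, and are read away from each other. The stretch common to both RefSeq promoter windows (GRCm38.p6, chr5:30155003-30155230, plus strand) is printed with GGGCGG, the core of the GC box, in capitals on either strand. The 250 bases before the start of Ech1 (chr7:28825088-28825337, plus strand) and of Echs1 (chr7:140116422-140116671, minus strand) follow, as the member with the largest diet difference and the one that did not pass the test, with GGGCGG and AGGTCA, a core site of nuclear receptors, in capitals on either strand.
Hadha and Hadhb: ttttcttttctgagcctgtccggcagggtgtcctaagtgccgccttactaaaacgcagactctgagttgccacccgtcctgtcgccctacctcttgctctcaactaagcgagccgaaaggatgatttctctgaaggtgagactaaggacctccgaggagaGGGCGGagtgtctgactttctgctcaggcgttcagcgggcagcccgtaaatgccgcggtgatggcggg
Ech1: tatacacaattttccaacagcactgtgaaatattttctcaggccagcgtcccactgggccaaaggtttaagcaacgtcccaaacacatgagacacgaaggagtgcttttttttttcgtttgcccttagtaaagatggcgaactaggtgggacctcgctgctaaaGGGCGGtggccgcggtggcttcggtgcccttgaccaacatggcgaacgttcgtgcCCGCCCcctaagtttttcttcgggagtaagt
Echs1: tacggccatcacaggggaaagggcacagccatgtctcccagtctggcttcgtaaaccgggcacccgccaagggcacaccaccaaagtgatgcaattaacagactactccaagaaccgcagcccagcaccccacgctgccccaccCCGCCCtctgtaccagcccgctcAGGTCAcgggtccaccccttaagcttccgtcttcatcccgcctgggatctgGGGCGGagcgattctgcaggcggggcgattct

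RefSeq promoter windows of 300 bases, from 250 before to 50 after the start, were at hand for 8 of the 10 genes, all but Acaa2 and Decr1. GGGCGG was found on either strand in 7 of the 8, all but Etfa, and in 35.7% of all 32851 promoter windows. AGGTCA was found only in Echs1 and in 16.3% of all windows. The direct repeat of AGGTCA with 1 base between the copies, to which PPARs bind, was found in 0 of the 8 and in 0.0396% of all windows, and TCAAGGTCA, to which the estrogen-related receptors bind, in 0 of the 8 and in 0.423%. The NRF1 motif was found only in Etfdh and in 0.971% of all windows. TCAAGGTCA and the direct repeat contain AGGTCA, so these searches overlap.

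The first question was how far the high fat diet moved these genes. On HFD 9 of the 10 genes were higher and 0 were lower (limma over all probesets with diet and batch, Benjamini-Hochberg adjusted p below 0.05). Over all probesets 38.1% passed in either direction, 18.9% higher and 19.3% lower, and in the brightest decile 16% were higher and 8.72% lower. The median difference of the 10 genes was 0.19 units, and that of all probesets was -0.00066 units. Ech1 and Decr1, both auxiliary enzymes for unsaturated fatty acids, had the largest differences, and Echs1 was the gene that did not pass.

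**Figure D1:**
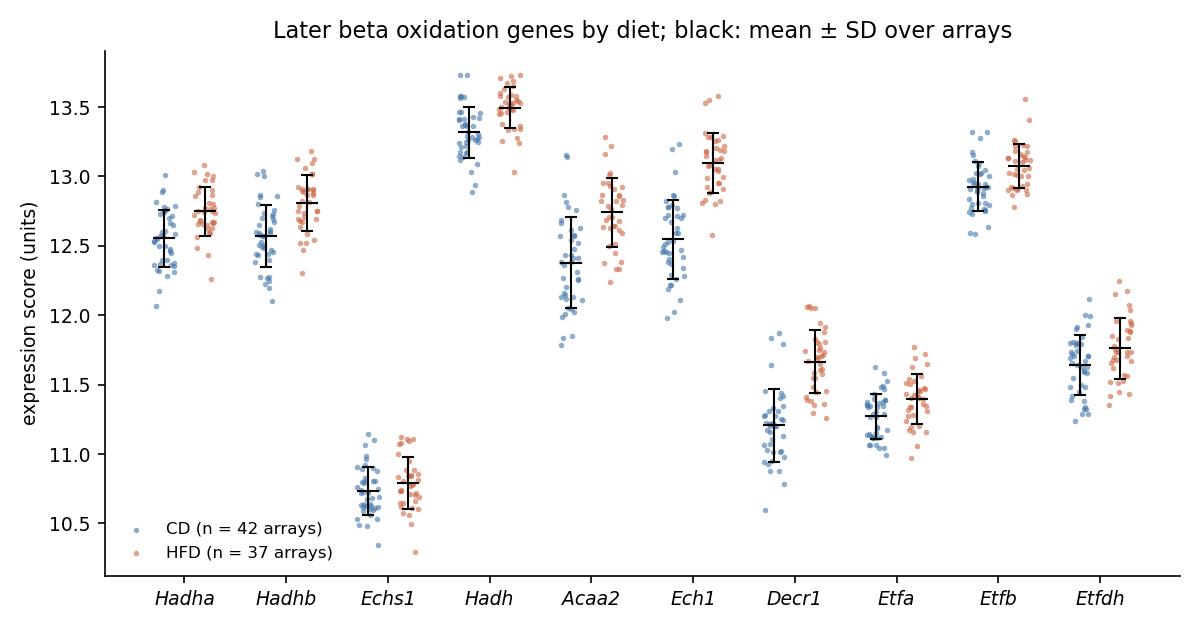
Score of each gene (y axis, units) on the 42 CD and 37 HFD arrays, 1 point per array, with the mean and SD over arrays in black. Ech1 and Decr1 show the clearest shift between diets (0.55 and 0.46 units), Echs1 the smallest (0.06 units), and the 2 diets overlap for every gene.

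Ech1 isomerises dienoyl-CoA intermediates that arise from odd-numbered double bonds. Its score ran from 11.98 to 13.23 on CD (median 12.52) and from 12.58 to 13.58 on HFD (median 13.12). The diets overlapped, since the highest CD array, BXD98, stood above most HFD arrays, but the HFD median lay near the top of the CD range. The mean was 12.55 ± 0.284 on CD (SD, n = 42) and 13.10 ± 0.217 on HFD (SD, n = 37), which is 0.55 units more (95% interval 0.44 to 0.66, SE 0.0571, adjusted p = 6.75e-13 by limma), and Ech1 was higher in 36 of 37 strains.

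Decr1, the 2,4-dienoyl-CoA reductase, takes part in the handling of polyunsaturated chains. It ran from 10.60 to 11.88 on CD (median 11.21) and from 11.26 to 12.07 on HFD (median 11.69). Its difference was 0.46 units (SE 0.0554, limma adjusted p = 1.32e-10), with a higher value in 36 of 37 strains. BXD98 was the exception for Ech1 and for Decr1.

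Acaa2, the mitochondrial 3-ketoacyl-CoA thiolase that cleaves off acetyl-CoA, ran from 11.78 to 13.16 on CD (median 12.38) and from 12.24 to 13.28 on HFD (median 12.77). The rise was 0.36 units (SE 0.0657, adjusted p = 4.97e-06 by limma) and held in 34 of 37 strains. Its CD range was the widest among the 10 genes.

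The trifunctional protein joins a hydratase and a long-chain dehydrogenase in Hadha with a thiolase in Hadhb. Hadha ran from 12.07 to 13.01 on CD (median 12.55) and from 12.26 to 13.08 on HFD (median 12.74). Its difference was 0.19 units (SE 0.0435, limma adjusted p = 0.000192; higher in 31 of 37 strains). Hadhb ran from 12.11 to 13.04 on CD (median 12.58) and from 12.31 to 13.18 on HFD (median 12.82), and its difference was 0.24 units (SE 0.0481, limma adjusted p = 3.78e-05; higher in 32 of 37 strains). Both subunits rose, and the ranges of the diets overlapped for each. The other Hadhb probeset, 10520467, ran from 11.85 to 12.79 on CD (median 12.31) and from 12.14 to 13.06 on HFD (median 12.67). It gave 0.35 units (SE 0.0494, limma adjusted p = 1.33e-08), and its difference exceeded that of 10474379 in 36 of 37 strains, by 0.11 ± 0.0449 units (SD, n = 37). Both probesets carry the symbol Hadhb, but whether 10474379 reads Hadhb itself or a related sequence elsewhere was not tested, so the size of the Hadhb difference is uncertain between these values. The order of the genes is a description of the probesets read.

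Hadh, the dehydrogenase for medium and short chains, had the highest scores, 12.89 to 13.73 on CD (median 13.30) and 13.03 to 13.73 on HFD (median 13.52). The rise was 0.18 units (SE 0.0382, adjusted p = 0.000101 by limma) and held in 29 of 37 strains. Echs1, the short-chain enoyl-CoA hydratase, ran from 10.34 to 11.15 on CD (median 10.72) and from 10.30 to 11.13 on HFD (median 10.77). Its difference of 0.06 units did not pass (SE 0.0410, 95% interval -0.02 to 0.14, adjusted p = 0.280 by limma), and 21 of 37 strains were higher on HFD.

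The ETF genes had small differences. Etfb, its beta subunit, stood at 12.93 ± 0.175 on CD (SD, n = 42) and 13.07 ± 0.160 on HFD (SD, n = 37), 0.15 units more (SE 0.0380, adjusted p = 0.00107 by limma; higher in 32 of 37 strains). Etfa, its alpha subunit, differed by 0.12 units (SE 0.0387, limma adjusted p = 0.00791; higher in 29 of 37 strains). Etfdh, the oxidoreductase that passes the electrons on to ubiquinone, differed by 0.12 units (SE 0.0491, limma adjusted p = 0.0439; higher in 29 of 37 strains). All 3 rose, and all 3 overlapped widely between diets. Etfdh was close to the threshold and did not pass without the parental strains (adjusted p = 0.0796), after quantile normalization (0.0602) or without dim probesets (0.0524). Within batch 1 alone 6 genes passed (5.82% of all probesets were called higher in that fit) and within batch 2 alone 7 (12.2% of all probesets), where Etfdh passed in neither (adjusted p = 0.134 and 0.339), Etfa in neither (0.0883 and 0.150) and Etfb not in batch 1 (0.157). The differences of Ech1 within the batches were 0.60 and 0.51 units.

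Ordered by the mean difference over the 37 paired strains, the genes ran from Ech1 to Echs1 in small steps. Ech1 exceeded Decr1 in 26 strains, by 0.08 ± 0.159 units (SD, n = 37), and Decr1 exceeded Acaa2 in 26 strains, by 0.08 ± 0.135 units. The step from Acaa2 to Hadhb was 0.15 ± 0.197 units and held in 29 strains, but with the other Hadhb probeset it was 0.04 ± 0.191 units and held in 22, and that probeset exceeded Hadha by 0.15 ± 0.109 units in 33 strains. From Hadha to Etfdh each gene was within 0.04 units of the next, and the SD of each of these steps over strains was at least 0.122 units. These steps are descriptions without a test.

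**Figure D2:**
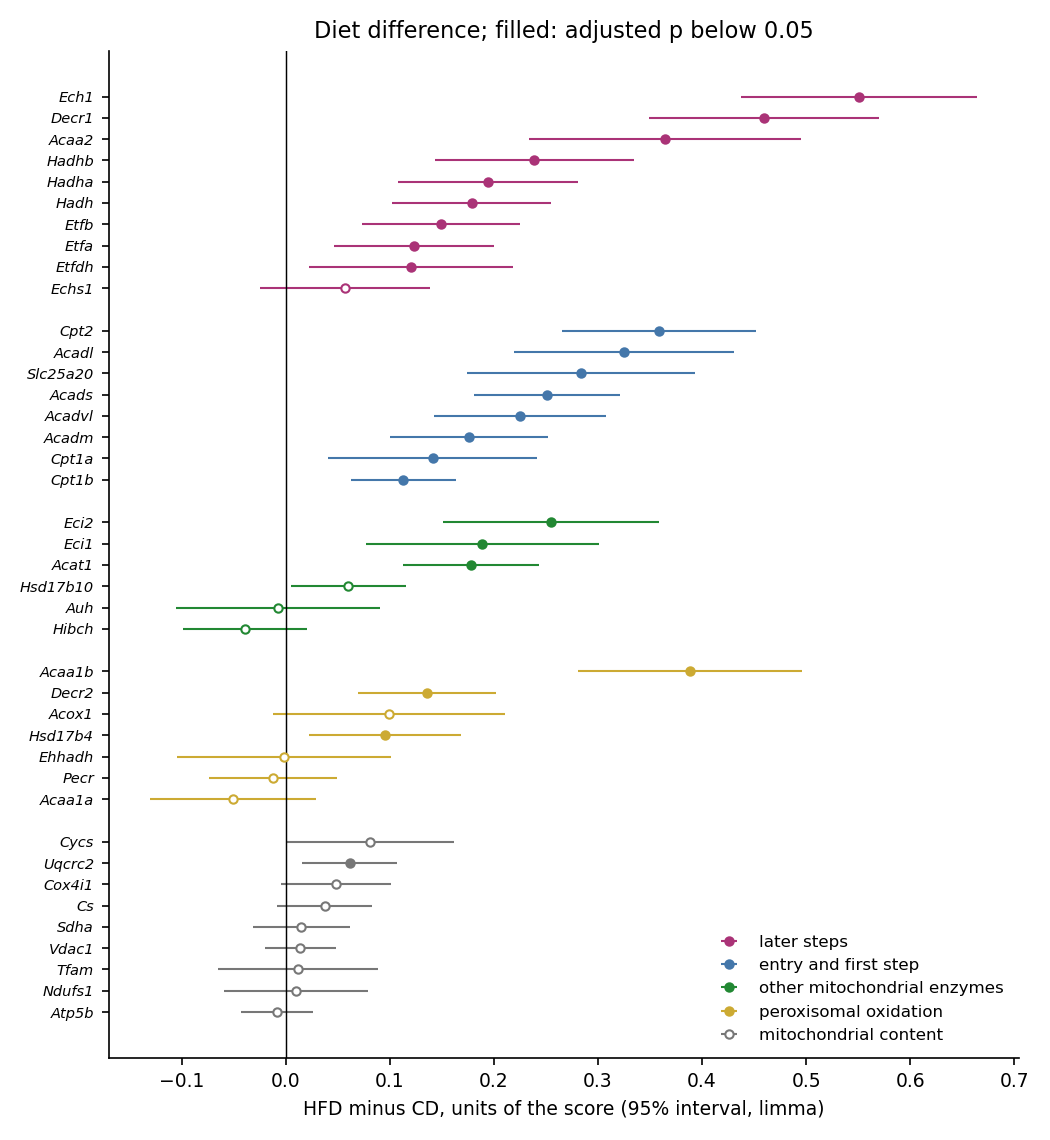
HFD minus CD in units of the score (x axis) for the 10 genes of the later steps and for 4 other gene lists, with 95% intervals from limma. Filled points passed adjusted p below 0.05: 9 of 10 later genes, 8 of 8 genes of entry and the first step, and 1 of 9 genes of mitochondrial content.

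The rest of the pathway gave the setting for these values. All 8 genes of carnitine-dependent entry and the first dehydrogenation were higher on HFD (median 0.24 units), from 0.11 for Cpt1b, the muscle carnitine palmitoyltransferase of the outer membrane, to 0.36 for Cpt2, its partner of the inner membrane. Of 6 further mitochondrial enzymes of acyl-CoA breakdown 3 were higher and 0 lower (median 0.12 units), among them Eci1 (0.19 units) and Eci2 (0.25 units), the enoyl-CoA isomerases. Of 7 genes of peroxisomal oxidation 3 were higher and 0 lower (median 0.10 units). Of 9 known PPAR targets 5 were higher and 1, Ucp3, was lower, while Pdk4 differed by -0.04 units (limma adjusted p = 0.566). Of 9 genes that track mitochondrial content 1 was higher and 0 lower (median 0.02 units), and that one, Uqcrc2, differed by 0.06 units.

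Some markers of other cells moved with diet too, in a fit where 18.9% of all probesets were higher and 19.3% lower. Of the 6 adipocyte markers 4 were higher and 1 lower on HFD, with a mean of 8.79 to 10.60 over CD arrays and of 8.93 to 11.11 over HFD arrays. Adipoq stood at 9.72 on CD and 10.26 on HFD. The lower one, Cfd, stood at 9.89 and 9.29 (-0.61 units, limma adjusted p = 1.15e-05), and Retn did not pass. Of the 4 macrophage markers 3 were higher (mean of 8.53 to 9.45 on CD and 8.71 to 9.99 on HFD), as were 3 of 3 endothelial markers (9.90 to 10.80 and 10.28 to 10.95). Of the 5 slow fibre markers 0 passed (8.22 to 10.82 and 8.06 to 10.44), of the 6 muscle fibre markers 0, and of the 3 brown adipocyte markers 0. In bulk muscle a change in the share of a cell type and a change within cells cannot be told apart. With the mean of the adipocyte markers as a covariate 8 of the 10 genes passed (15.6% of all probesets were called higher in that fit), with Ech1 at 0.49, Decr1 at 0.42 and Acaa2 at 0.31 units, and Etfdh did not, at 0.11 units (adjusted p = 0.113). With the mean of the slow fibre markers 9 passed (18.7% of all probesets), with Ech1 at 0.59 units. The part of macrophages and endothelium was not tested.

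The next question was how the diet difference varied between strains. In 16 of the 37 paired strains all 10 genes were higher on HFD, in a further 10 strains 9 were, and in 29 strains at least 8. Fewer than 5 were higher in 4 strains, namely BXD73 (4 genes), BXD56 (3), BXD49 (2) and BXD98 (0). These counts rest on 1 array per strain and diet, and a difference within a strain has no error of its own.

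**Figure D3:**
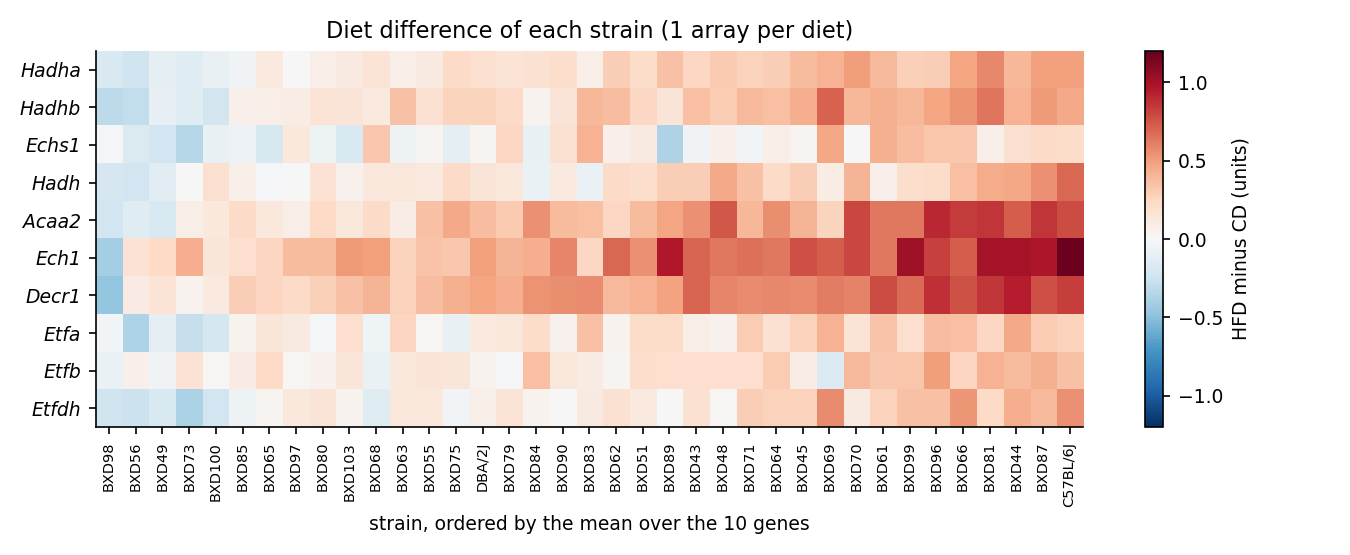
HFD minus CD of each gene (rows) in each of the 37 paired strains (columns, ordered by the mean over the 10 genes), with red for higher on HFD and blue for lower. The mean ran from -0.22 units in BXD98 to 0.58 units in C57BL/6J, and the rows of Ech1 and Decr1 are red in 36 of 37 strains each.

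The mean difference over the 10 genes ran from -0.22 units in BXD98 to 0.58 units in C57BL/6J, with a median of 0.25, and was above 0 in 32 of 37 strains. In C57BL/6J the mean score of the 10 genes was 11.81 on CD and 12.39 on HFD, and in BXD87 it was 11.75 on CD, the lowest of all CD arrays, and 12.30 on HFD. In BXD98 it was 12.48 on CD and 12.27 on HFD. Low CD values thus stood beside large differences in 2 strains and a high CD value beside the lowest difference, but the CD score is part of the difference, so the 2 are not independent.

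Single genes had their ends in different strains, with BXD98 lowest for Ech1, Acaa2 and Decr1. Ech1 ran from -0.41 units in BXD98 to 1.18 in C57BL/6J, and Decr1 from -0.47 in BXD98 to 0.94 in BXD44. Acaa2 ran from -0.23 in BXD98 to 0.91 in BXD96. Hadha ran from -0.24 in BXD56 to 0.57 in BXD81, and Hadhb from -0.31 in BXD98 to 0.71 in BXD69. By its other probeset Hadhb ran from -0.22 in BXD56 to 0.85 in BXD69. BXD69, the strain with the largest differences of Hadhb, Echs1 (0.46) and Etfdh (0.57), had the lowest of Etfb (-0.18). For BXD69, as for BXD73 and 6 other strains, the CD and HFD arrays came from different batches, so that diet and batch cannot be told apart within the strain.

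Over strains the genes varied more than the typical bright probeset. The SD over strains had a median of 0.213 units for the 10 genes on CD and 0.195 on HFD, against medians of 0.137 and 0.145 over the 3556 probesets of the brightest decile. The range had a median of 0.905 units on CD and 0.826 on HFD, against 0.604 and 0.626. Acaa2 was the most variable on both diets (SD 0.328 and 0.249), and the least variable were Etfa on CD (SD 0.162) and Hadh on HFD (SD 0.150). These are descriptions without a test.

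The low and high ends were held by few strains. On CD the lowest array was BXD43 for Hadhb, Echs1, Acaa2, Decr1 and Etfdh, BXD87 for Hadha and Ech1, C57BL/6J for Hadh, BXD70 for Etfa and BXD61 for Etfb. The highest CD array was BXD97 for Hadha, Hadhb, Hadh and Etfdh, BXD65 for Echs1, Acaa2, Etfa and Etfb, and BXD98 for Ech1 and Decr1. On HFD BXD56 was lowest for Hadha, Hadhb, Hadh, Ech1, Acaa2 and Etfa. For the mean of the 10 genes BXD97 was the highest strain on both diets, at 12.57 on CD and 12.69 on HFD.

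Strains kept their order between diets only in part. Over the 37 paired strains, with batch means removed, Pearson's r of CD with HFD ran from 0.274 (Ech1) to 0.522 (Etfb), with a median of 0.401 for the 10 genes, 0.363 for the brightest decile and 0.141 for all probesets. The r of 4 genes passed a two-sided permutation test adjusted over all probesets, and so did 10.3% of all probesets and 31.1% of the brightest decile. The share of the 10 genes was close to that of other bright probesets.

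**Figure D4:**
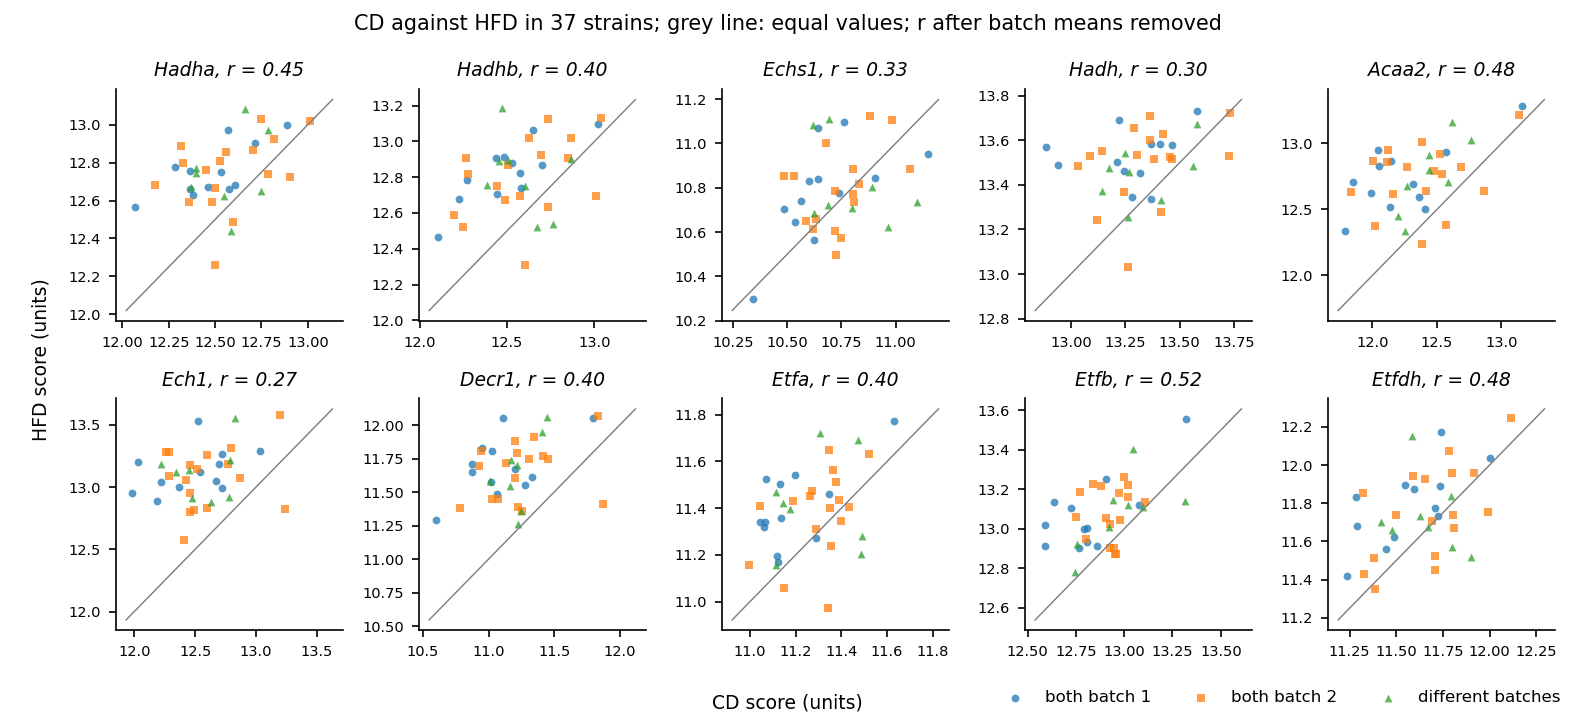
Score on HFD (y axis, units) against score on CD (x axis, units) for each of the 10 genes, 1 point per paired strain, with symbols for the batch of the 2 arrays and a grey line where both are equal. Etfb has the highest r (0.52) and Ech1 the lowest (0.27), and most points of Ech1 and Decr1 lie above the line.

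Etfb had r = 0.522 (permutation p = 0.00095, adjusted p = 0.0144) and rho = 0.445 (permutation p = 0.00635). Etfdh had r = 0.482 (permutation p = 0.00268, adjusted p = 0.0311) and rho = 0.426 (permutation p = 0.00935). Acaa2 had r = 0.478 (permutation p = 0.003, adjusted p = 0.0336) and rho = 0.353 (permutation p = 0.0323). Hadha had r = 0.450 (permutation p = 0.00472, adjusted p = 0.0466) and rho = 0.402 (permutation p = 0.0141). With the 2 strains that lay farthest from the median CD score left out, r was 0.346 for Etfb (BXD65 and BXD69 omitted), 0.344 for Etfdh (BXD97 and BXD43), 0.251 for Acaa2 (BXD65 and BXD97) and 0.350 for Hadha (BXD97 and BXD87), and 0 of the 10 genes passed, as against 7.5% of all probesets treated in the same way. Leaving out such strains also narrows the range of CD scores. An unadjusted p below 0.05 was then seen for Hadha (permutation p = 0.0400), Echs1 (0.0360), Decr1 (0.00533), Etfb (0.0422) and Etfdh (0.0434). Within the 12 strains with both arrays in batch 1 the 4 genes had r of 0.654 to 0.726, and within the 17 with both in batch 2 r of 0.0877 (Etfb) to 0.584 (Etfdh).

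No member passed the adjusted test between the parental strains. C57BL/6J minus DBA/2J was below 0 for all 10 genes in a fit of strain, diet and batch, and 0 of 10 passed (limma adjusted p below 0.05, against 1.26% of all probesets), and 1 gene, Hadh, had an unadjusted p below 0.05. Hadh stood at 12.89 in C57BL/6J and 13.58 in DBA/2J on CD, and at 13.57 and 13.73 on HFD. The fitted difference was -0.43 units (SE 0.146, 95% interval -0.72 to -0.13, limma adjusted p = 0.201), an interval below 0 for a value that did not pass the adjustment over all probesets. Ech1 stood at 12.03 in C57BL/6J and 12.70 in DBA/2J on CD, and at 13.20 and 13.19 on HFD, with a fitted difference of -0.33 units (95% interval -0.77 to 0.11). For Ech1, Decr1, Etfb and Etfdh the C57BL/6J array was the lower one on CD and the higher one on HFD, and whether the diet difference itself differed between the parents was not tested, with 1 array each.

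The last question was how closely the genes followed each other over strains. All probesets were fitted with limma on the value of one member and batch, or batch class for the differences. The classes were both arrays in batch 1, both in batch 2, or different batches in either direction. A pair was called only where the fits on both of its members each gave the other member an adjusted p below 0.05. On CD 38 of the 45 pairs were called, on HFD 30, and for the HFD minus CD differences of the 37 paired strains 30. Counted as single tests, the members called each other in 84.4% of 90 tests on CD, against 1.52% of all probesets and 5.59% of the brightest decile. On HFD the share was 68.9%, against 0.914% and 3.68%, and for the differences 72.2%, against 2.19% and 4.03%. The fit on Echs1 called 17.6% of all probesets for the differences, and without it the share was 72.8% of 81 tests, against 0.48%. All 45 pairs had r above 0 in each setting, with medians of 0.740, 0.723 and 0.679.

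**Figure D5:**
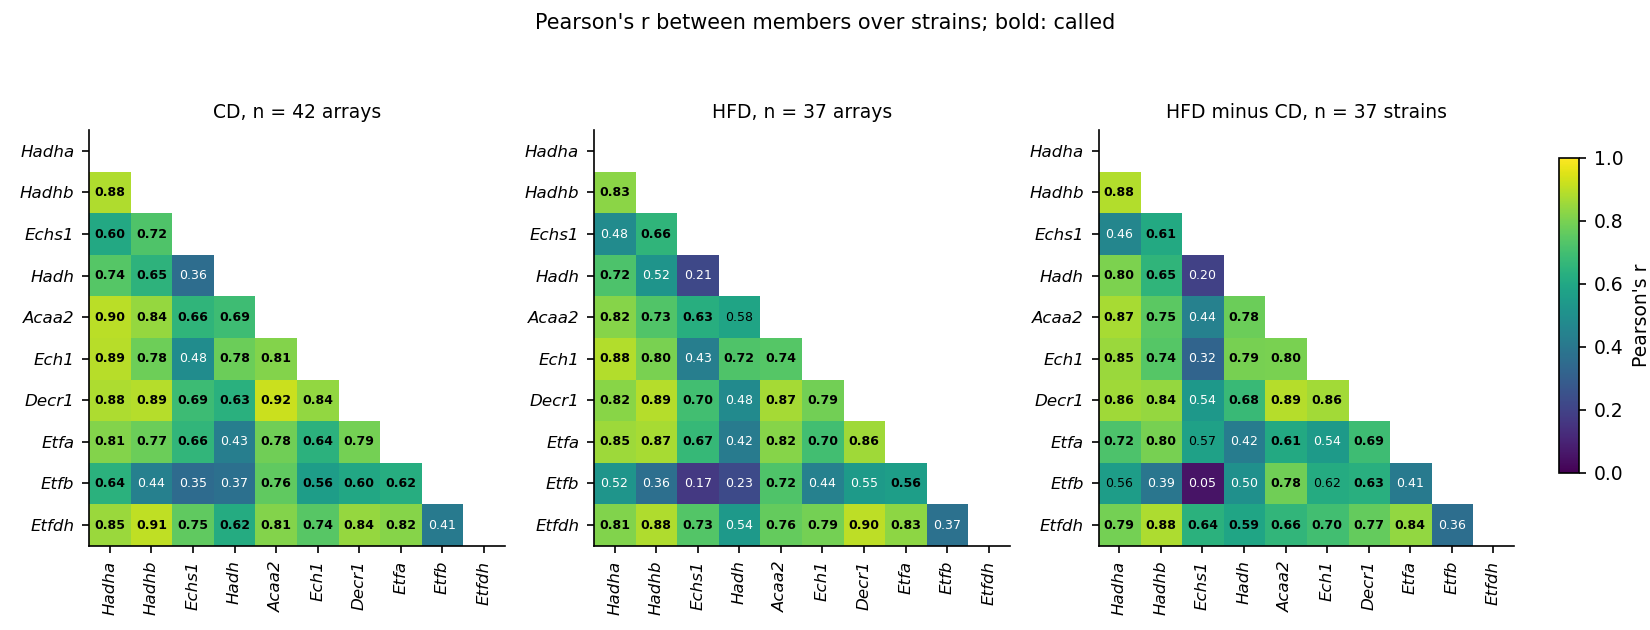
Pearson's r of each pair of genes over strains on CD, on HFD and for the difference between diets, coloured from 0 (dark) to 1 (yellow), with called pairs in bold. Means of batch were removed on CD and on HFD, and means of batch class for the difference. The pairs of Hadha, Hadhb, Acaa2 and Decr1 are at 0.73 or above in all 3 panels. The darkest rows belong to Echs1, Hadh and Etfb on CD and on HFD, and to Echs1 and Etfb for the difference.

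Within batches both the medians and the counts differed. The median r in batch 1 was 0.711 on CD, 0.602 on HFD and 0.769 for the differences, and in batch 2 it was 0.813, 0.814 and 0.773. In batch 1 on HFD 39 of the 45 pairs had r above 0, and the lowest was -0.317. Batch 1 alone left 7 pairs called on CD, 0 on HFD and 0 for the differences. Batch 2 alone left 32, 27 and 12. Fewer arrays entered these fits, and the share of all probesets called in them was not taken. Weaker covariation and fewer arrays therefore cannot be told apart by these counts.

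The subunits of the trifunctional protein were among the closest pairs. Hadha and Hadhb had r = 0.882 on CD (n = 42) and rho = 0.884, each with the smallest p that the permutations can give (1e-05), and limma adjusted p = 1.23e-10 and 1.80e-10 in the 2 fits. On HFD r was 0.826 and rho 0.758, and for the differences r was 0.884 and rho 0.836, again each with permutation p = 1e-05. Without the 2 farthest strains r was 0.875, 0.756 and 0.851. Their r was 0.731 in batch 1 and 0.970 in batch 2 on CD, and 0.524 and 0.944 on HFD, where the median pair of batch 1 had 0.602. Pairs on different chromosomes were as close, such as Hadhb and Etfdh, with r = 0.905 on CD, 0.879 on HFD and 0.875 for the differences. The promoter windows of Hadha and Hadhb overlap, as printed above, and the other Hadhb probeset gave r = 0.881, 0.833 and 0.899 with Hadha.

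ETF is made of 1 alpha and 1 beta subunit, but over both batches the alpha subunit had a higher r with Etfdh than with the beta subunit. Etfa and Etfdh had r = 0.817 on CD (limma adjusted p = 1.03e-06 and 2.12e-07), 0.831 on HFD (2.08e-06 and 3.51e-06) and 0.836 for the differences (3.54e-05 and 1.11e-05). Etfa and Etfb had r = 0.623 on CD (0.00372 and 0.00321) and 0.562 on HFD (0.0399 and 0.0345), and at 0.412 the pair was not called for the differences (0.402 and 0.190). Etfb and Etfdh were called in no setting, with r = 0.414, 0.374 and 0.361. In batch 1 alone the order turned on HFD, where Etfa had r = 0.784 with Etfb and 0.655 with Etfdh, and for the differences, with 0.804 and 0.705. Whether r differed between these pairs was not tested.

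Other close pairs crossed the steps. Acaa2 and Decr1 had r = 0.919 on CD, 0.866 on HFD and 0.889 for the differences, and each was the other's most similar gene on the array over the 79 arrays after diet and batch (r = 0.898). Hadha and Ech1 had r = 0.893, 0.883 and 0.848. Ech1 and Decr1, the auxiliary enzymes, had r = 0.838, 0.787 and 0.861. All of these were called in all 3 settings.

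On CD and on HFD the lowest median r with the other members belonged to Hadh, Echs1 and Etfb. Hadh had a median of 0.634 on CD, where 6 of its 9 pairs were called, of 0.518 on HFD, where 2 were, and of 0.653 for the differences, where 6 were. Etfb had medians of 0.558, 0.440 and 0.502 and was called in 5, 2 and 2 of 9 pairs. Echs1, the gene without a diet call, had 6 and 5 pairs called on CD and on HFD but 2 for the differences (median r 0.460). The lowest r for the differences was 0.0525, between Echs1 and Etfb. Several values of Etfb and of Hadh for the differences were far lower in the 8 strains whose arrays lay in different batches. In some of these strains the CD array lay in batch 1, and in others in batch 2. They entered as a single class, so a batch effect among them was not removed. Etfb and Echs1 had r = 0.658 in the strains of batch 1, 0.154 in those of batch 2 and -0.622 in these 8. Etfb and Hadhb had r = 0.394 over all strains, but 0.727, 0.795 and -0.545 in the same classes, and Etfb and Etfdh 0.361 over all, but 0.764, 0.677 and -0.516. In these 8 strains r of Etfb was near 0 with Decr1 (-0.0657) and Ech1 (-0.0660), and it was 0.521 with Acaa2, a called pair with 0.841 and 0.845 in the batches and 0.784 over all. Among the called pairs of Hadh, r in the same strains was -0.00222 with Acaa2, 0.0093 with Decr1, 0.127 with Hadhb and 0.18 with Etfdh. With Ech1 and Hadha it was 0.618 and 0.467. Hadh and Acaa2 had 0.685 and 0.956 in the batches.

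Outside the 10 genes, those most like their mean over the 79 arrays, after diet and batch, were Hsdl2 (r = 0.925), the fatty acid binding protein Fabp3 (0.923), the medium-chain acyl-CoA dehydrogenase Acadm (0.882), Cpt2 (0.864) and the epoxide hydrolase Ephx2 (0.854). Hadha was most like Fabp3 (0.912), Hadhb like Etfdh (0.892), Hadh like Pdlim1 (0.821), Ech1 and Etfa like Hadha (0.889 and 0.825), Echs1 like Etfdh (0.743), Etfb like Acaa2 (0.741) and Etfdh like Hsdl2 (0.893). The genes share their arrays, and these values are descriptions without a test.

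Among the lists, the 8 genes of entry and the first step were called with the members in 82.5% of 80 tests on CD and in 71.2% on HFD. For all probesets the share was 1.52% on CD and 0.914% on HFD, and for the brightest decile 5.59% and 3.68%. The 9 genes of mitochondrial content were called in 25.6% of 90 tests on CD and in 17.8% on HFD, the 6 other mitochondrial enzymes in 48.3% and 45% of 60, the 9 PPAR targets in 25.6% and 17.8% of 90, and the 7 peroxisomal genes in 11.4% and 12.9% of 70. The 5 slow fibre markers were called in 58.0% of 50 tests on CD, with positive slopes throughout, and in 0 on HFD, and their r with the mean of the members was 0.440 to 0.541 over all arrays. The 6 muscle fibre markers were called with negative slopes in 7 of 60 tests on CD and 1 on HFD, and their r with the mean of the members was -0.512 to -0.178. The adipocyte markers were called in 6.67% of 60 tests on CD and in 0 on HFD. The macrophage, endothelial, brown adipocyte and red blood cell markers were called in 0 tests on either diet. The part of slow fibres in the covariation between members was not tested.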

How the data were processed

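The authors deposited 1 score per probeset and array, made from Affymetrix Mouse Gene 1.0 ST arrays with Affymetrix Expression Console per the labels, and scaled to a mean of 8.0 and an SD of 2.0. The log base, summarization, background method and any batch correction are not given in the sources used here. Scaling each array removes any shift common to all probesets. All 79 arrays were used, 0 value columns were left out, and no 2 arrays were identical. The number of arrays limits the precision.

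Linear models (limma 3.58.1 in R 4.3.3) were fitted on all 35556 probesets as deposited. Diet was fitted with batch as a covariate, covariation within each diet or on the differences, and the parental strains with diet and batch, each with Benjamini-Hochberg adjustment over all probesets. They had been planned for log values and were run on the scores. Correlations (numpy 2.4.6, scipy 1.17.1) used 100000 two-sided permutations of strains. For other probesets the permutations stopped early where p was clearly high. The diet fit, the covariation fit and the permutation test were tested on simulated data. HFD and CD arrays pair by strain, and the median r between paired arrays' values over strains was 0.141 over all probesets. For no member did a mixture of 2 normal components both lower the BIC by at least 10 and reach an Ashman's D above 2, the rule used here for separate clusters, although D alone was above 2 for several members.

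The members, the other lists and the tests were chosen with earlier results of these data known. The genes named are all members, members of the lists, the 5 genes most like the members' mean and each member's most similar gene, and strains are named where they hold the lowest or highest values, few genes higher on HFD, or were left out. Alternatives covered batch, strain as a block, strains left out, the methods' t-test, scaling, dim probesets and probeset choice. Of the 26221 probesets with a symbol, those of 22335 symbols gave the gene names. Promoter sequences came from RefSeq (GRCm38.p6).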

Additional observations from a re-analysis of the deposited data

How the results depend on the processing

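The count of 9 genes higher on HFD was 9 when the fit of the 37 paired strains took strain as a replicate block, which changed no call, and lay between 6 (batch 1 alone) and 9 under all alternatives. No diet difference reversed. The pairs called on CD went from 38 to 7, on HFD from 30 to 0 and for the differences from 30 to 0 in batch 1 alone, and for the differences to 12 in batch 2 alone, where fewer arrays entered. The share of all probesets called was not taken for these single-batch fits. The r between diets passed for 4 genes, and for 0 in each of the 3 batch classes and when the 2 strains with the most extreme CD scores were left out. Among the 8 strains whose arrays were split between batches r reversed for Hadhb (-0.383; other probeset -0.355), Echs1 (-0.528) and Etfdh (-0.405), and the cause was not tested. The median range of the genes was 0.905 units on CD and 0.826 on HFD from lowest to highest, and 0.497 and 0.482 from the 10th to the 90th percentile. Without batch means removed 3 genes passed between diets, without Hadha (adjusted p = 0.0577). Centring each array on its median left 9 diet calls, with 8199 of all probesets higher and 5758 lower against 6703 and 6848 as deposited. The fits with marker means and with the other Hadhb probeset were added after the data had been seen.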
